A study of Homo sapiens with 6 samples.

Results

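MALAT1 and NEAT1 are a pair of long non-coding RNA genes that lie near each other on chromosome 11 and whose transcripts stay in the nucleus. They were described here as 2 genes among the 59098 on chromosomes 1 to 22 and X in a RefSeq table. The pair was chosen by the peaks already seen at it, that is, by peak positions, −log10 p values, ranks, reproducibility and folds in the lists described below. All values of these kinds are therefore given as a description, with no test. A peak belonged to a gene when at least 1 bp of it lay in the gene span or within 5 kb of either end.

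MALAT1 RNA is concentrated in nuclear speckles, bodies rich in splicing factors that are built around the scaffold proteins SON and SRRM2. NEAT1 RNA is the scaffold of paraspeckles, neighbouring bodies that assemble on it while it is transcribed and that hold proteins such as NONO, SFPQ and PSPC1. Its long isoform is needed for that assembly, and its short isoform covers only the first part of the gene. HMGB2 is a high mobility group protein that bends DNA without a strict sequence preference, and its loss from the nucleus is known as an early event of senescence.

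The cells were IMR90, human embryonic lung fibroblasts, profiled by ChIPmentation, in which a transposase inserts sequencing adapters into antibody-bound chromatin. Of the 6 samples, 4 had a peak list used here: SON in untreated cells, SON after 3 days and after 6 days of a treatment labelled ICM, which the labels do not expand, and HMGB2 in untreated cells. SON cells were fixed with formaldehyde alone, and HMGB2 cells with the long-reach crosslinker EGS before formaldehyde, so the target and the fixation cannot be told apart in any contrast of the SON and HMGB2 lists. The HMGB2 input and the sample titled for HMGB2 with DSG were not used. Each group had 1 list, so no difference between conditions has a replicate check and no test was made. The lists held 22362 (SON untreated), 11158 (SON, 3 days), 5583 (SON, 6 days) and 6013 (HMGB2) lines. The lists hold no read counts and no expression values, so the depth is unknown and neither the cell type nor the level of either RNA was checked. Because the lists differ in length, ranks and percentiles place a peak within its own list and show no change between lists.

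In the hg38 coordinates of the lists, which GRCh38.p14 shares, NEAT1 spans 65422798 to 65445540 on chromosome 11, a length of 22743 bp. MALAT1 spans 65497738 to 65506516, a length of 8779 bp, and starts 52.2 kb beyond the end of NEAT1. Both are read here from the lower to the higher coordinate, and the RefSeq promoter table places MALAT1 on the plus strand. The table gives no exons. The window of NEAT1 also held MIR612, a microRNA gene from 65444458 to 65444557 near the end of NEAT1. The window of MALAT1 also held TALAM1, an antisense RNA gene from 65499312 to 65507432, and MASCRNA, the gene of the small RNA cut from the end of the MALAT1 transcript, from 65506117 to 65506174.

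RefSeq lists 2 promoter windows of MALAT1, each from 250 bases before to 50 bases after a start site, and they are shown because peaks of these lists lay on them in different combinations. Promoter 1 is chr11:65497488-65497787 and promoter 2 is chr11:65498795-65499094, both on the plus strand of GRCh38.p14. The capitals mark the bases inside an HMGB2 peak.
MALAT1 promoter 1: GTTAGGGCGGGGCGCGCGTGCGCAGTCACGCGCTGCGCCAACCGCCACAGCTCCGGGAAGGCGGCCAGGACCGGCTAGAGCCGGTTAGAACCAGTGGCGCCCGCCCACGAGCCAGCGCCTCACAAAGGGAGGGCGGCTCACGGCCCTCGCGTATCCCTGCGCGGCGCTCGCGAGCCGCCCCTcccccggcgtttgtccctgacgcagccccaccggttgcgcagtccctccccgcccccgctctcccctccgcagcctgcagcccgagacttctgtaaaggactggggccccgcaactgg
MALAT1 promoter 2: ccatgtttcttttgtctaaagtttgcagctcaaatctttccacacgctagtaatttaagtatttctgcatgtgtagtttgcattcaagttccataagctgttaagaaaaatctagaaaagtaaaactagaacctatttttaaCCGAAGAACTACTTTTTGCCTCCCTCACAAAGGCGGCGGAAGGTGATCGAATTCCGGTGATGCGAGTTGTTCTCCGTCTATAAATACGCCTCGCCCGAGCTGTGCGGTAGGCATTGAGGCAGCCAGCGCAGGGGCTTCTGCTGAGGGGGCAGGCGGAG

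Promoter 1 was rich in G and C, which made up 73.7% of its bases, with 37 CG dinucleotides. Promoter 2 had 46.0% and 14. The median over the 34781 promoter windows of the table was 58.7% and 14. The GC box letters GGGCGG, searched on both strands as were all motifs, occurred 5 times in promoter 1, 4 of them inside the HMGB2 peak, and not in promoter 2. They occur in 44.9% of all promoter windows. The TATA box letters TATAAA occurred 1 time, in promoter 2, where they begin 30 bases before the start site and lie inside the HMGB2 peak. They occur in 11.6% of all windows. The CCAAT box letters CCAAT (34.6% of all windows) and CCACNAGG, a part of the CTCF core motif (4.94%), were in neither window. No match overlapped a match of another motif, and a match describes the letters only.

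At MALAT1, SON peaks lay at the start in all 3 SON lists. In untreated cells the peak ran from 65497294 to 65497915, across the gene start, and covered 300 of the 300 bases of promoter 1 and none of promoter 2. Its −log10 p, the lower of 2 replicate values, was 23.7, rank 2592 of 22362. The peak at 3 days, from 65497281 to 65497935, had a −log10 p of 21.8 and rank 1201 of 11158. The peak at 6 days, from 65497325 to 65497635, ended 102 bp before the gene start, with a −log10 p of 6.97 and rank 4312 of 5583. The percentiles of the 3 peaks in their lists were 88.4, 89.2 and 22.8. So the start peak was among the stronger peaks of the untreated and 3-day lists and among the weaker ones of the 6-day list.

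The 2 replicates behind each list gave the start peak the following values. The untreated start peak had a −log10 p of 23.7 in both replicates, the same value to every deposited digit, as had the farther NEAT1 peak described below. Such identical values occur in 55.9% of the lines of that list, 29.0% of the 3-day list and 9.49% of the 6-day list. How the replicates were made is not given in the sources used here. Measures of agreement between replicates, given below, are therefore not comparable between the lists. At 3 days the values were 21.8 and 33.3, and at 6 days 6.97 and 7.18. The global irreproducible discovery rate (IDR), an estimate of the share of irreproducible peaks among those ranked at least as high, was 0.0037 for the untreated peak and 0.00177 for the 3-day one. At 6 days it was 0.63, the largest value of that list, which 2177 of its lines share. The summits lay 169, 181 and 249 bp before the gene start, and those of the later peaks were 12 and 80 bp from the untreated one.

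A second SON peak of untreated cells lay behind MALAT1, from 65506741 to 65508295, starting 224 bp after the gene end. It was 1555 bp wide, against a median of 412 bp in its list, and covered the high-coordinate end of TALAM1, where this gene, antisense to MALAT1, begins. Its −log10 p was 17.5 and 18.2 in the replicates, rank 4649 of 22362, with a global IDR of 0.00535. Neither the 3-day nor the 6-day list held a peak there. Apart from the start peaks, no SON list held a peak inside MALAT1.

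HMGB2 had 4 peaks at MALAT1, 1 before the start, 1 inside the gene and 2 behind its end. The first, from 65497445 to 65497669, lay on promoter 1 and ended 68 bp before the start, with a fold enrichment, as the peak caller gives it over its background, of 4.35 and a −log10 p of 10.8, rank 2258 of 6013. The second, from 65498937 to 65499200, lay on promoter 2 and across its start site at 65499045. It was the strongest of the 4, with a fold of 6.94 and a −log10 p of 17.3, rank 599. The third, from 65507507 to 65508320, had a fold of 3.21 and a −log10 p of 11.03, and the last, from 65508421 to 65508774, a fold of 5.44 and a −log10 p of 14.3. All 4 stood above the median −log10 p of the HMGB2 list, which was 9.52, and 2 of the 4 above its median fold of 4.89. No HMGB2 peak lay between the promoter 2 peak and the gene end.

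The HMGB2 peak on promoter 1 lay wholly within the untreated SON peak, with summits 29 bp apart, and wholly within the 3-day SON peak, with summits 41 bp apart. It shared 191 bp with the 6-day SON peak. The third HMGB2 peak shared 789 bp with the untreated SON peak behind the gene. The strongest HMGB2 peak, on promoter 2, overlapped no SON peak of any list, and neither did the last one.

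**Figure D1:**
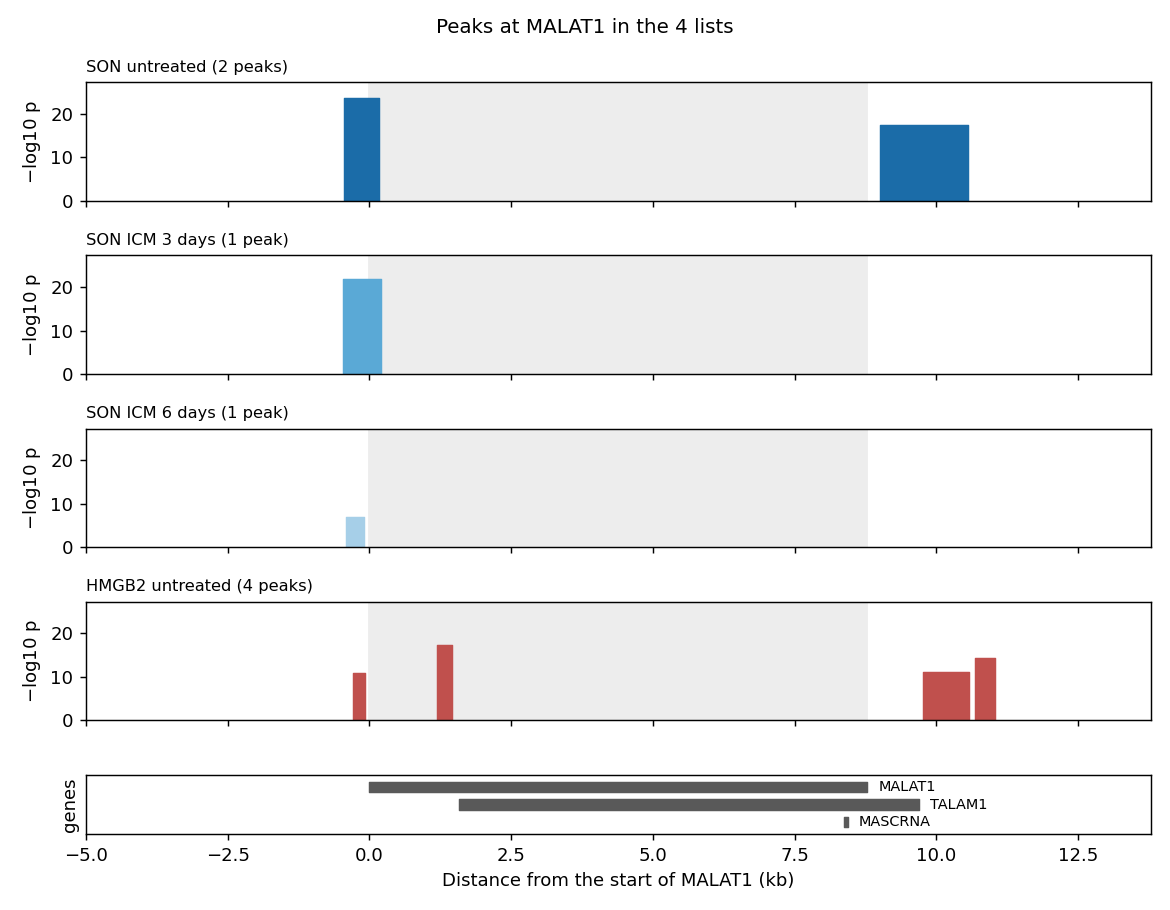
Peaks at MALAT1 by distance from the gene start (kb, grey shading is the gene), with the height of each bar giving its −log10 p and a row of gene spans at the bottom. SON peaks stand at the start in all 3 SON lists (23.7, 21.8 and 6.97), 1 more stands behind the gene in untreated cells, and the tallest of the 4 HMGB2 peaks (17.3) stands inside the gene at promoter 2.

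At NEAT1, SON peaks lay only before the gene. The untreated list held 2, and no SON list held a peak inside the gene or behind it. The farther one, from 65421217 to 65421526, ended 1271 bp before the start, with a −log10 p of 16.3 in both replicates, rank 5243 of 22362 and a global IDR of 0.00671. The nearer one, from 65422096 to 65422478, ended 319 bp before the start, with replicate values of 10.6 and 15.3, rank 10238 and a global IDR of 0.072. The 3-day list held 1 peak, from 65421261 to 65421528, with replicate values of 9.72 and 7.58, rank 7669 of 11158 and a global IDR of 0.123. Its summit was 3 bp from that of the farther untreated peak. The 6-day list held no peak in the window. With the IDR limit set to 0.05, the farther untreated NEAT1 peak passed, and neither the nearer one nor the 3-day one did. Both untreated peaks and the 3-day peak at MALAT1 passed, and its 6-day peak did not. The farther NEAT1 peak and the untreated MALAT1 start peak had identical replicate values. Their low IDR therefore does not show that independent replicates agreed. Of all lines, 59.7% of the untreated, 41.8% of the 3-day and 16.0% of the 6-day list passed.

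The percentiles of the 2 untreated NEAT1 peaks were 76.6 and 54.2, and that of the 3-day peak was 31.3. Each of these SON peaks thus stood lower in its list than the MALAT1 start peak of the same list. No test of that difference was made, since the ranks chose the genes.

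HMGB2 had 21 peaks at NEAT1, 3 before the gene, 14 inside it and 4 behind it. NEAT1 carried more HMGB2 peaks than any other of the 59098 genes. The peaks covered 5955 bp, or 18.2% of the 32.7 kb window. The gap between neighbours ran from 78 to 3940 bp, with a median of 1010 bp, against a median of 78.1 kb over the whole list. Fold ran from 2.79 to 6.19 with a median of 4.74, and −log10 p from 5.29 to 23.1 with a median of 9.16. Of the 21, 8 stood above the median −log10 p of the list and 10 above its median fold. So the peaks at NEAT1 were close together, and 13 of them did not exceed the median strength of the list.

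The strongest HMGB2 peak at NEAT1, from 65421200 to 65421534, ended 1263 bp before the start, with a fold of 6.12 and a −log10 p of 23.1, rank 235 of 6013. It contained the farther untreated SON peak and the 3-day SON peak entirely, with summits 9 and 6 bp from theirs. The next strongest, from 65422886 to 65423201, began 88 bp inside the gene, with the largest fold of the 21, 6.19, and a −log10 p of 16.1, rank 752. The nearer SON peak of untreated cells lay between these, and no HMGB2 peak overlapped it.

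Inside the gene, summits were most frequent in its middle part. The first 5 kb held 3, the stretch from 5 to 10 kb held 5, that from 10 to 15 kb held 4, that from 15 to 20 kb held 1, and the last 2.74 kb held 1. The strongest peak deeper in the gene, from 65434122 to 65434384, had its summit 50.2% of the way along, with a fold of 6.18 and a −log10 p of 12.3. The weakest of all 21, from 65426380 to 65426576, had a fold of 2.79 and a −log10 p of 5.29, rank 5823. The last one inside, from 65444514 to 65444688, overlapped MIR612, with a fold of 4.74 and a −log10 p of 7.65. The 4 peaks behind the gene began 200, 957, 1526 and 2933 bp after its end, with folds of 4.70, 6.09, 4.16 and 4.70.

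**Figure D2:**
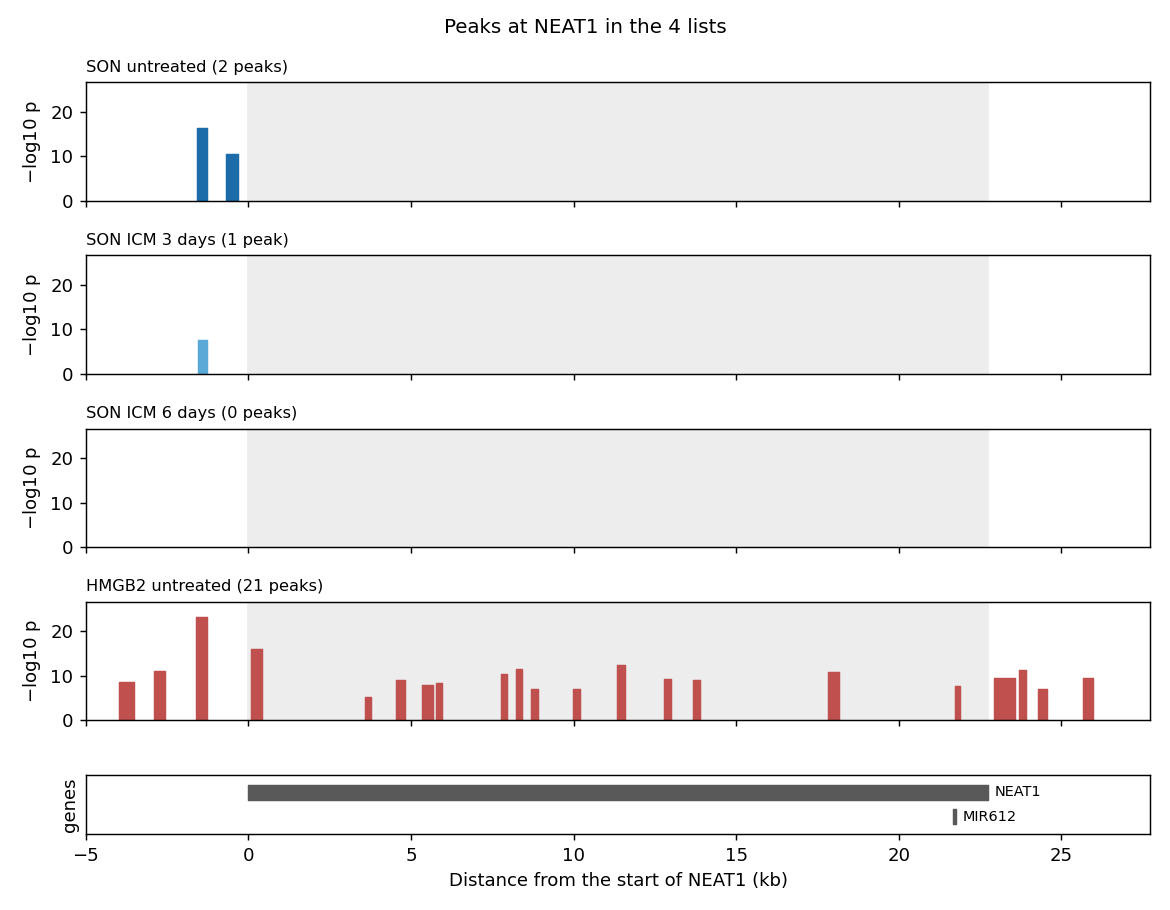
Peaks at NEAT1 by distance from the gene start (kb, grey shading is the gene), with the height of each bar giving its −log10 p and a row of gene spans at the bottom. SON peaks stand before the gene in the untreated (16.3 and 10.6) and 3-day (7.58) lists, the 6-day list has none, and 14 of the 21 HMGB2 peaks lie inside the gene.

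The edges of the windows were not crowded. The outermost HMGB2 peaks inside the NEAT1 window lay 3.51 kb before the gene (−log10 p 8.63) and 2.93 kb behind it (9.47). The nearest ones outside lay 40.2 kb before it (7.70) and 9.59 kb behind it (11.2). At MALAT1 the outermost one behind the gene lay at 1.90 kb (14.3), and the nearest outside lay 9.77 kb before it (12.9) and 33.8 kb behind it (12.8). For SON in untreated cells the nearest peak outside lay 7.68 kb behind NEAT1 (6.49) and 9.77 kb before MALAT1 (35.8).

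As background, a peak in the gene or within 5 kb was found at 31.4% of the 59098 genes for SON in untreated cells. The 3-day list reached 21.1%, the 6-day list 11%, and HMGB2 11.8%. Among the 18177 lncRNA genes the shares were 26.4%, 15.9%, 8.17% and 8.52%. MALAT1 had a peak in all 4 lists, as did 5.03% of all genes and 3.00% of lncRNA genes. NEAT1 had one in every list but the 6-day one, as did 3.50% of all genes. Both had 2 untreated SON peaks, and 10.2% of genes had at least 2. The 4 HMGB2 peaks of MALAT1 were reached by 0.386% of genes (228), and the 21 of NEAT1 by 1 gene, NEAT1 itself (0.00169%). Since these counts chose the genes, the shares are only their setting.

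**Figure D3:**
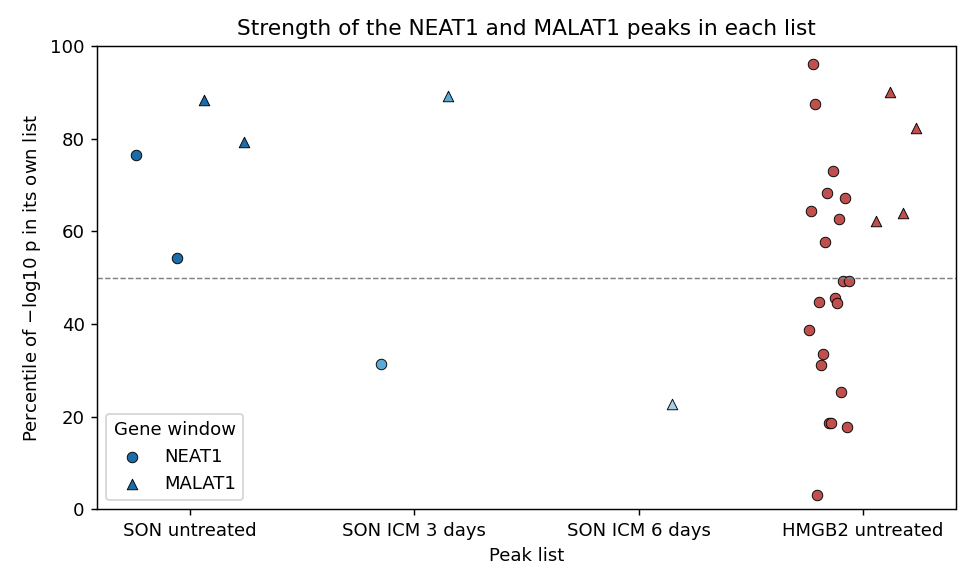
Percentile of the −log10 p of each NEAT1 peak (circles) and MALAT1 peak (triangles) within its own list, 1 point per peak, with a dashed line at the list median. The MALAT1 start peak stands at 88.4 and 89.2 in the untreated and 3-day SON lists and at 22.8 in the 6-day list, and the 21 HMGB2 peaks of NEAT1 run from 3.13 to 96.1.

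The other genes with at least 10 HMGB2 peaks show what NEAT1 stands beside. There were 14 of them. IGFBP5, which encodes a secreted binder of insulin-like growth factors, had 20, ADAMTSL4-AS1 and TPM4, the gene of a tropomyosin, had 15 each, and LMNA, NR4A1 and PDE10A had 14 each. LMNA encodes A-type lamins of the nuclear lamina and NR4A1 an inducible nuclear receptor. FOSB, an AP-1 gene, and MIR23AHG, the host of a microRNA cluster, had 12 each, and COL1A2, a collagen I chain, had 10. Several of the 14 share their peaks with a neighbour, such as LOC124900515 with IGFBP5.

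Counted per length of window, NEAT1 had 6.41 HMGB2 peaks per 10 kb and was not the fullest. RN7SL600P had 10.7, NR4A1AS 9.30, FOSB 6.98 and MIR23AHG 6.52, in shorter windows, while IGFBP5 had 5.98 and TPM4 3.30. RN7SL600P (0.299 kb) and NR4A1AS (0.751 kb) had 1 HMGB2 peak each in the gene itself, against 14 at NEAT1. Their other peaks lay in the 5 kb on either side. A stretch of 32.7 kb placed at any HMGB2 peak of chromosomes 1 to 22 and X held at most 21 peaks, and that one was at NEAT1. In 3 separate stretches there were at least 20: that at NEAT1, and those that meet IGFBP5 and TNS4, with 20 each. TNS4 is only met by its stretch, and its own window is not among those with at least 10 HMGB2 peaks.

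SON peaks were counted at the same genes, which were picked for their HMGB2 peaks. The 14 others had from 0 to 7 untreated SON peaks, with a median of 2, the number at NEAT1. In 4 of the 14 no untreated SON peak lay inside the gene, as at NEAT1. These were RN7SL600P, MIR23AHG, LOC124900515 and LOC221946, from 0.299 to 11.7 kb long, against 22.7 kb for NEAT1. However, RN7SL600P lies within the span of ADAMTSL4-AS1, which had 3 untreated SON peaks inside, and LOC124900515 within that of IGFBP5, which had 1. NR4A1AS likewise lies within NR4A1. The 14 are therefore not separate loci, and the median and the count of 4 include the same loci more than once. Those of the 14 that were longer than NEAT1 all had at least 1 inside, among them IGFBP5 (23.4 kb) with 1 and CSRP1 (23.6 kb) with 2. Of the 21 HMGB2 peaks of NEAT1, 1 overlapped an untreated SON peak, 1 a 3-day SON peak and none a 6-day SON peak. At MALAT1 it was 2, 1 and 1 of 4. Over the whole HMGB2 list the shares were 62.4% (61.2 to 63.6%), 44.2% (43.0 to 45.5%) and 23.7% (22.6 to 24.8%), with 95% exact binomial intervals. These intervals cover counting error only and treat the peaks as independent, although peaks cluster at some genes. They are no test of the counts at NEAT1 or MALAT1. At the 14 other genes 0 to 6 HMGB2 peaks overlapped an untreated SON peak, among them 1 of 20 at IGFBP5 and 6 of 14 at LMNA.

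**Figure D4:**
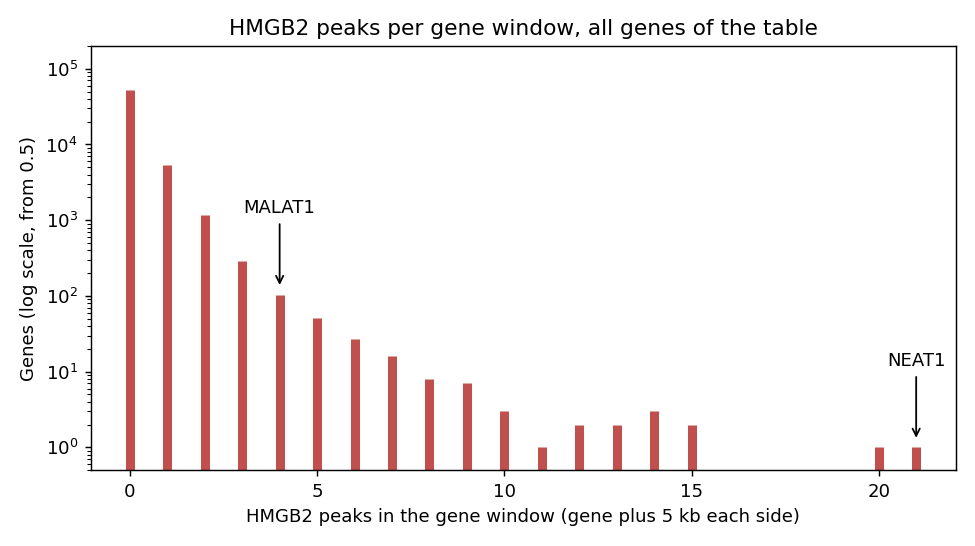
Number of genes (log scale) by the number of HMGB2 peaks in the gene or within 5 kb, over 59098 genes. NEAT1 stands at the right end with 21 peaks, next to 1 gene with 20, and MALAT1 stands at 4.

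By the number of peaks in the 4 lists, compared as the Euclidean distance of log2(1 + peaks), the gene most like NEAT1 was TPM4 at a distance of 0.46, with 2, 1 and 0 SON peaks and 15 HMGB2 peaks. MIR23AHG (0.87), ADAMTSL4-AS1 (0.87), FOSB (0.96) and PDE10A (1.14) followed. For MALAT1, 9 genes outside its window had the same 4 counts. The closest of these in the mean percentile of the strongest peaks, 72.6 for MALAT1, were IRF2BPL (72.5), TTC39C (65.9), PI4KB (82.9), MUS81 (83.4) and DNAJB2 (83.5). The likeness rests on 4 lists.

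The genes of paraspeckle proteins were set beside the RNA that organises the bodies. All 21 of the list had an untreated SON peak, 18 had one at 3 days, 9 had one at 6 days, and 6 had an HMGB2 peak. Among the 19974 protein-coding genes of the table the shares with a peak were 57.1%, 41%, 21.5% and 23.3%. In the list the later shares were 85.7% and 42.9%, and that for HMGB2 was 28.6%. The median per gene was 1, 1, 0 and 0 peaks in the 4 lists, and over all genes 0 in each. No member of this list had more than 2 HMGB2 peaks.

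Among the proteins that bind NEAT1 directly, NONO had 1 peak in each SON list, with −log10 p values of 8.27, 7.98 and 14.05, and no HMGB2 peak. SFPQ, its partner, had 1 untreated SON peak at 31.0 and 1 at 3 days at 13.9, none at 6 days, and 1 HMGB2 peak with a fold of 3.75. PSPC1, the third of this family, had 1 in each SON list, at 24.1, 30.1 and 10.4. RBM14, which helps to hold paraspeckles together through a disordered region, had 1 peak in each SON list, at 37.8, 45 and 12.01. It also had 2 HMGB2 peaks, both overlapped by untreated SON. SMARCA4, a chromatin remodelling ATPase found in paraspeckles, had 1 SON peak in each list, at 52.1, 103.6 and 20.3. DAZAP1, an RNA-binding protein, had 3, 3 and 1 SON peaks and 2 HMGB2 peaks. Since −log10 p values are not comparable between lists, percentiles within each list are given for the other SON peaks named here. They were 36.0, 36.8 and 87.6 for NONO, and 93.4 and 76.9 for SFPQ. For PSPC1 they were 89.0, 93.4 and 71.6, for RBM14 95.8, 96.5 and 81.1, and for SMARCA4 97.9, 99.2 and 94.9.

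The genes of other nuclear or abundant non-coding RNAs were read in the same way. Of 15, 13 had an untreated SON peak, 10 a 3-day one and 4 a 6-day one (86.7%, 66.7% and 26.7%), and 8 had an HMGB2 peak (53.3%). The shares over all 59098 genes were 31.4%, 21.1%, 11% and 11.8%. Among lncRNA genes they were 26.4%, 15.9%, 8.17% and 8.52%, although not all of the 15 are of that type. The medians over the 15 genes were 1, 1, 0 and 1 peaks. RMRP, the RNA of RNase MRP, had 1, 1 and 2 SON peaks and 2 HMGB2 peaks. RN7SK, which restrains the elongation factor P-TEFb, had 1, 1 and 0 SON peaks and 2 HMGB2 peaks. SNHG1, a host of small nucleolar RNAs, had 1 peak in every list, with −log10 p values of 45.8, 47.2 and 19.1 for SON. The percentiles of its SON peaks within their lists were 97.3, 96.7 and 94.5. KCNQ1OT1, an imprinted antisense RNA that acts on chromatin, had 1, 1 and 0 SON peaks and no HMGB2 peak. TUG1 had 1 untreated SON peak, at 34.9, and no other, and NORAD and TERC had none in any list. None of the 15 had more than 2 HMGB2 peaks, against 4 at MALAT1 and 21 at NEAT1.

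**Figure D5:**
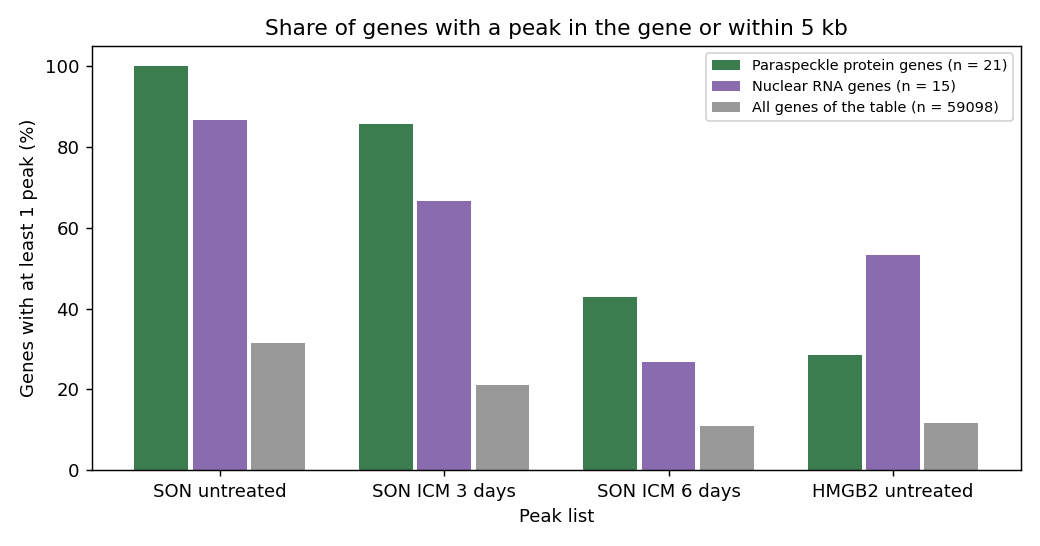
Share of genes (%) with at least 1 peak in the gene or within 5 kb, for 21 paraspeckle protein genes, 15 genes of nuclear or abundant non-coding RNAs and all 59098 genes, in each list. The set of 15 is labelled nuclear RNA genes in the figure. The paraspeckle bars stand at 100%, 85.7%, 42.9% and 28.6%, the nuclear RNA bars at 86.7%, 66.7%, 26.7% and 53.3%, and those of all genes at 31.4%, 21.1%, 11% and 11.8%. The paraspeckle genes are all protein-coding, and the shares over protein-coding genes, not drawn, were 57.1%, 41.0%, 21.5% and 23.3%.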

How the data were processed

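Peak lists of 4 ChIPmentation samples were read as deposited. Per the submitters' processing notes, which name tools without their roles, bcl2fastq 2.17, Bowtie2, MACS2 and deepTools were used, and the build was hg38. Settings, the control used for calling and the depth are not given in the sources used here. Each SON list has the 20-column layout of the IDR tool on 2 replicates. It holds the authors' −log10 p of each replicate, their lower value, the −log10 of the global IDR and a score scaled from it, with a placeholder in the signal and q columns. How the replicates were made is not stated. The HMGB2 list was deposited as a narrowPeak table with fold enrichment, −log10 p, −log10 q and a score, and the largest q in it was 0.0287. Whether it pools replicates is not stated. No value was rescaled, and values are used only within their own list.

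Computed here were, with pandas 2.3.3, numpy 2.4.6, scipy 1.17.1 and matplotlib 3.10.9 under Python 3.11.15, the peaks of every gene of a GRCh38.p14 RefSeq table, their rank and percentile among all lines of a list, and overlaps of at least 1 bp. Coordinates are 1-based. As a check of the build, 25.8% of RefSeq promoter windows met an untreated SON peak, and 0.983% did when moved by 20 kb. The window count, tested on simulated data, equalled a direct count for 3171 of 3171 genes of chromosome 11. The members, the gene lists (paraspeckle proteins, nuclear or abundant RNAs, processing of the RNA ends), the motifs and the rules for named genes were chosen with earlier results of these data known. Named genes were the members, all genes of their windows, the 5 most like each member and the 5 genes with the most HMGB2 peaks, ties included. Further genes with many HMGB2 peaks and the examples of the lists were picked after their values were seen. Alternatives covered the window, a stricter threshold, merging of lines and the overlap that counts as shared.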

Additional observations from a re-analysis of the deposited data

How the results depend on the processing

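The number of peaks depended on the window and on the threshold. In the gene span alone, SON peaks at NEAT1 numbered 0 in untreated cells and 0 at 3 days, those at MALAT1 1 in untreated cells and 0 at 6 days, and HMGB2 peaks at MALAT1 numbered 1. With 1 kb each side, SON peaks at NEAT1 were 1 in untreated cells and 0 at 3 days. With 10 kb each side they were 2 at 3 days and 1 at 6 days at NEAT1, and 2 at 3 days and 2 at 6 days at MALAT1, where the added peaks lay at neighbouring loci. A global IDR of at most 0.05 left 1 untreated and 0 3-day SON peaks at NEAT1, and 0 6-day peaks at MALAT1, where 59.7%, 41.8% and 16.0% of all lines of the untreated, 3-day and 6-day lists were kept. In the stronger 50% of each list, 0 3-day SON peaks and 8 HMGB2 peaks were left at NEAT1, and 0 6-day SON peaks at MALAT1. Both SON values were also 0 when the stronger replicate was used, a setting chosen after seeing the data, as was the search of all stretches for HMGB2 peaks. In the stronger 50%, 0 HMGB2 peaks of NEAT1 were overlapped at 3 days and 0 of MALAT1 at 6 days, and 0 of the later SON peaks of NEAT1 at 3 days and of MALAT1 at 6 days met an untreated one. With a gap of up to 500 bp, 2 HMGB2 peaks of NEAT1 were met by untreated SON. The 21 HMGB2 peaks of NEAT1 were 21 at a q of at most 0.01, and 16 after lines within 500 bp were merged.

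The background share of genes with a peak was 23.8%, 15.8%, 7.86% and 7.25% in the gene span alone, in the order of the 3 SON lists and HMGB2, and 26.4%, 15.9%, 8.17% and 8.52% among lncRNA genes. No paired analysis was possible because each group had 1 list, and no replicate could be left out. The depth of the libraries is unknown, so a peak missing from a list, such as those of NEAT1 at 6 days, was not called there and is not shown to be absent.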

Other observations

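The 42.2 kb between the NEAT1 and MALAT1 windows carried further peaks, which numbered 6 for SON in untreated cells, 3 in the 3-day list, 4 in the 6-day list and 5 for HMGB2. At LINC02736, a lncRNA gene, a SON peak stood in each SON list, with −log10 p values of 35.8, 23.8 and 8.25 and percentiles of 95.2, 90.6 and 45.3. An HMGB2 peak with a fold of 3.34 lay there too. These percentiles were above those of the strongest SON peak of the same list in either gene window. A further SON peak, untreated from 65471996 to 65472438 and outside any gene of the table, was found in all 3 SON lists, with percentiles of 92.7, 82.6 and 70.5. At 6 days this peak had a −log10 p of 10.3, against 6.97 at the MALAT1 start. An HMGB2 peak with a fold of 2.47, from 65472145 to 65472329, lay within this SON peak in each list. At ENEMAL, another lncRNA gene, SON in untreated cells (−log10 p 9.41) and HMGB2 (fold 4.74) had a peak each and the later SON lists had none. At the near end of the pseudogene FAUP4 the order was the other way: the 3-day and 6-day SON lists and the HMGB2 list held a peak and the untreated list did not. The SON peaks there were weak, with a −log10 p of 5.17 and 6.01, each at the largest global IDR of its list.

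The gene list for processing of the RNA ends holds RNase P components, which cut the ends of MALAT1 and NEAT1 transcripts, the nuclease ELAC2, and METTL16, which binds the MALAT1 end. All 5 had an untreated and a 3-day SON peak, 2 had a 6-day one, and 2 had an HMGB2 peak. The shares over all protein-coding genes were 57.1%, 41.0%, 21.5% and 23.3% in the same order, and 1 of the 5 is an RNA gene. RPPH1, the RNA of RNase P, had 1 peak in every list, with −log10 p values of 57.9, 36.0 and 16.6 for SON and a fold of 4.74 for HMGB2. The percentiles of its SON peaks within their lists were 98.4, 94.7 and 92.3.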
